A study of Mus musculus with 2 samples.

Results

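Gene expression in 2 wild-type mouse liver samples was compared: cells positive for the surface protein Dlk1 sorted from fetal liver, labelled embryonic day 14 (E14), and whole liver labelled postnatal day 1 (P1). The samples were the wild-type channels of 2 oligonucleotide arrays, both labelled with Cy5, and made up 2 of the 4 channels of a series that compares wild-type liver with liver lacking the membrane-anchored matrix metalloproteinase MMP-14. The E14 sample was RNA of 100000 cells from 3 wild-type livers, sorted as Dlk+CD45-CD71-Ter119-, and the design text gives its stage as E14.5. The P1 sample was a mixture of RNA from 2 wild-type livers, and the design text gives its stage as E18.5, a conflict with the label that was not settled. It is called P1 liver after its label. The knockout channels of the same arrays, labelled with Cy3, held MMP-14 KO cells and livers pooled in the same way. Their P1 minus E14 difference is given beside the wild-type value. Genotype and dye changed together between the channels, and the genotypes were not tested against each other. There was 1 array per group and no dye swap, so the spread between animals is unknown and no difference could be tested; the number of arrays sets the precision. Array, stage, and sorted against unsorted tissue changed together and cannot be told apart, and in whole liver fewer cells of a type cannot be told apart from less RNA per cell.

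Dlk1 marks hepatoblasts, the bipotent progenitors of fetal liver that give rise to hepatocytes and bile duct cells. Fetal liver is also the main site of blood formation at mid-gestation, and the sort removed cells carrying the leukocyte antigen CD45, the transferrin receptor CD71 and the erythroid epitope Ter119. Around birth hepatocytes take on the enzymes of glucose production, nitrogen disposal, drug metabolism and fat oxidation, while blood formation moves to the bone marrow.

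Each array carried 23473 gene probes. A probe counted as detectable when its signal exceeded the mean of the blank spots by 2 SD, which gave 17445 probes on the E14 array and 18250 on the P1 array. Signals below are scaled signals, in intensity units after subtraction of the blank mean and quantile scaling of both arrays to a common distribution, and every difference is log2 of P1 liver over E14 Dlk+ cells. Scaled detection limits were 2.82 in the E14 sample and 1.41 in the P1 sample. Of 13534 genes with a value, 12336 were detectable on both arrays. A gene detectable on 1 array has only a bound, written "at least". Of all genes, 1919 (14.2%) were at least 2-fold higher in P1 liver and 2504 (18.502%) at least 2-fold lower, and 547 (4.04%) and 145 (1.07%) passed 8-fold. The P1 limit was 0.50 times the E14 limit, so the limits alone put a gene detectable only in E14 cells at about 2-fold lower. Among genes detectable on both arrays 1447 were higher and 2068 lower. With a common floor on both arrays 1919 genes were higher and 2147 lower. The median gene stood at -0.20, and with cyclic loess scaling at 0.04. The share of higher genes among all past 2-fold depended on the scaling: it was 43.4% with quantile scaling, 54.0% with scaling to a common 75th percentile and 60.2% with cyclic loess. The size of a difference in a dim gene depended on the background step. With normexp correction, which damps low signals, 792 of 13534 genes were at least 2-fold higher and 533 lower. Counts with normexp given for lists below stand beside these numbers and not beside 14.2% and 18.502%. Spots of 2 positive controls, 24 each per array, had a coefficient of variation of 4.78 to 6.73%. Where 132 genes had several probes, the median SD between them was 0.54 on the log2 scale, and 24 genes exceeded 1. Over 12005 genes detectable in all 4 channels, the difference in the wild-type channels and that in the knockout channels had a Pearson correlation of 0.866. This describes genes that share 2 arrays and their probes, and genes are not replicates.

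The sorting markers were checked against the labels. Dlk1 itself read 5507 in the E14 sample and 67.3 in P1 liver. Because the sort selected for Dlk1, this 81.8-fold difference is a check of the gate. Ptprc, which encodes CD45, was below the detection limit in the sorted cells and read 192 in P1 liver, at least 68.2-fold higher. Tfrc, which encodes CD71, was not absent from the sorted cells: it read 179 there and 1081 in P1 liver. The secreted proteins Alb, Ttr and Afp of the hepatocyte lineage were among the brightest spots of both samples, with scaled signals of 46078 and 46078 for Alb, 43474 and 34618 for Ttr, and 40941 and 22183 for Afp. All 3 were read at the top of the scanner range on at least 1 array, so their differences are compressed. Tat and Pck1, enzymes that mouse liver switches on around birth, read 4.99 and 29.1 in the E14 sample and 2458 and 6092 in P1 liver.

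**Figure D1:**
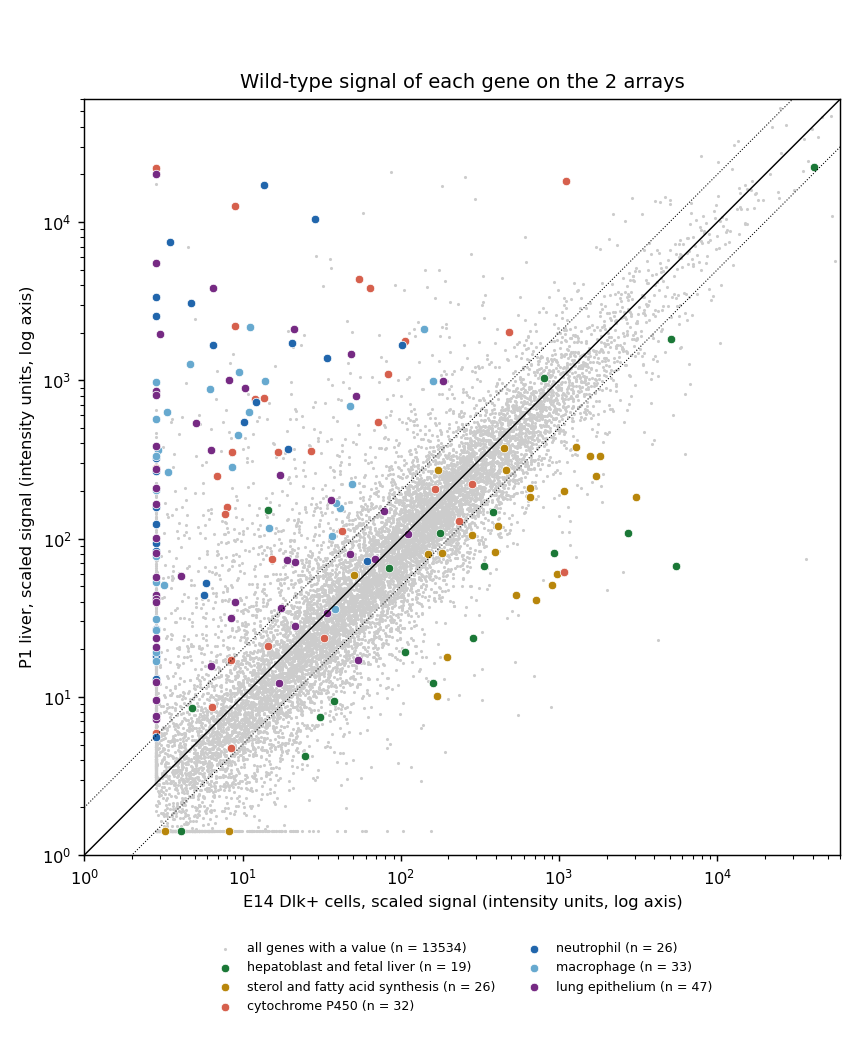
Scaled signal of each gene in wild-type E14 Dlk+ cells (x axis) and wild-type P1 liver (y axis), in intensity units on log axes, with the solid line at equality and dotted lines at 2-fold. Points on the left and lower edges lie at the detection limits (2.82 and 1.41); most neutrophil, macrophage, lung and P450 genes lie above the lines, and most hepatoblast and sterol genes below them.

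The hepatoblast and fetal liver genes were lower in P1 liver. Of 19 with a value, 13 were at least 2-fold lower and 1 was higher, with a median of -2.02 against -0.20 over all genes. After Dlk1, the serine protease inhibitor Spink1 differed most, at 2744 in E14 cells and 108 in P1 liver, a difference of -4.67. The growth regulator Mycn read 161 and 12.2 (-3.73), and the heparin-binding growth factor Mdk 923 and 80.8 (-3.51). Fetal RNA-binding proteins and chromatin proteins followed the same order. Igf2bp1, which binds Igf2 and other fetal mRNAs, read 285 and 23.7 (-3.59), and its paralog Igf2bp3 384 and 148 (-1.38). The high mobility group genes Hmga1 and Hmga2 differed by -2.31 and -2.02, and the pluripotency factor Sall4 by -2.55. Lin28b, a repressor of let-7 processing, was just above the limit in E14 cells, at 4.11, and below it in P1 liver, a bound of -1.54. This bound rests on the lower P1 limit. With a common floor on both arrays 12 of the 19 members were at least 2-fold lower. The oncofetal proteoglycan Gpc3 stayed bright at 5098 and 1822 (-1.48), and Afp, the fetal counterpart of albumin, differed by -0.88. The exception was the adhesion molecule Epcam, at 14.4 and 152 (3.40), which is also carried by bile duct and lung epithelial cells. The knockout channels gave a median of -1.94 for this list.

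The imprinted genes, many of which restrain or promote fetal growth, showed a similar picture with wide differences between members. Of 18 with a value, 11 were at least 2-fold lower and 2 higher, and the median was -1.65. Dlk1, for which the E14 cells were sorted, is counted in this list and in the one above. Cdkn1c, a maternally expressed inhibitor of cyclin-dependent kinases, read 6275 in E14 cells and 344 in P1 liver, 18.2-fold lower. Phlda2, a brake on placental growth, read 993 and 139. Igf2r, the receptor that clears Igf2, read 1382 and 209.7. The zinc finger gene Plagl1 read 10343 and 1722 and the noncoding Meg3, from the same imprinted domain as Dlk1, 3799.8 and 717. These 4 genes were 7.16-fold, 6.59-fold, 6.01-fold and 5.30-fold lower in P1 liver. The pair Igf2 and H19, which share an enhancer region and were the brightest members, differed by less than 2-fold. Igf2 read 24644 and 14290.1 (-0.79) and H19 30693 and 16013 (-0.94). The amino acid transporter Slc38a4 went the other way, from 612 to 2419 (1.98), and Rtl1, detectable only in P1 liver, had a bound of 1.49. Cdkn1c, Plagl1 and Meg3 were also lower in the knockout channels, with differences of -5.02, -3.50 and -3.37. The value of Dlk1 there, -6.29, is again a check of the gate.

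**Figure D2:**
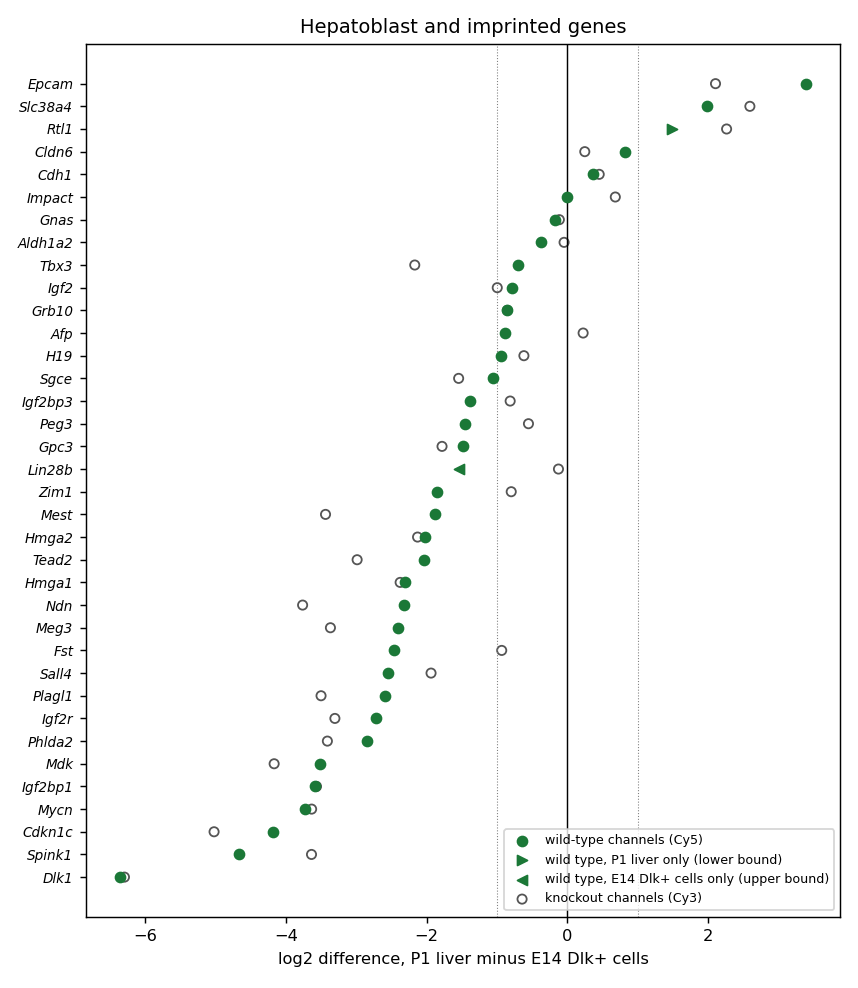
log2 difference of P1 liver minus E14 Dlk+ cells for each hepatoblast and imprinted gene in the wild-type channels (filled) and the knockout channels (open), with dotted lines at 2-fold and triangles for wild-type bounds. Most points lie left of 0 in both channels. Dlk1, for which the E14 cells were sorted, lies at -6.35 and -6.29. Epcam, Slc38a4 and Rtl1 lie past 2-fold on the right.

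Outside these lists the genes with the largest lower values in P1 liver included several secreted and lipid-handling proteins. Serpina6, which encodes corticosteroid-binding globulin of plasma, read 36171 in E14 cells, at the top of the scanner range, and 74.7 in P1 liver, at least 484-fold lower. The transcriptional coactivator Cited1 read 4222 and 23.0 (-7.52). Shbg, the plasma carrier of sex steroids, read 693 and 13.6 (-5.67). In the knockout channels the differences were -7.37 for Serpina6, -7.32 for Cited1 and -5.46 for Shbg. Mogat2, an enzyme of triglyceride synthesis, read 2023 and 47.5, and the hexokinase homolog Hkdc1 529 and 16.5. The carbonic anhydrase Car3 read 2551 and 61.9, a difference of -5.37. The pancreatic lipase relative Pnliprp1 read 886 and 8.61 while the other pancreas genes were dim on both arrays. Signalling molecules were among the genes detectable only in the E14 cells: Bmp7, a bone morphogenetic protein, was at least 109.9-fold lower in P1 liver, and Ihh, a hedgehog ligand, at least 42.2-fold lower. Both bounds rest on the P1 limit of 1.41 and would be smaller at the E14 limit of 2.82. The growth factor pleiotrophin, Ptn, a stromal gene, read 549 and 7.74 (-6.15).

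The enzymes of sterol and fatty acid synthesis were lower in P1 liver as a group. SREBP transcription factors drive this pathway when cells lack sterols, and many of its promoters hold a CCAAT box, the binding site of the factor NF-Y. Of 26 genes with a value, 21 were at least 2-fold lower and 0 higher, with a median of -2.25. The lowest members came from several steps. Of the early, isoprenoid steps, Idi1, the isomerase of the isoprenoid units, read 897 in E14 cells and 50.7 in P1 liver, and the kinase Mvk 536 and 44.2. The decarboxylase Mvd read 711 and 41.0. Of the later, sterol steps, Cyp51, the lanosterol demethylase, read 1071 and 61.6, the methyl sterol oxidase Msmo1 3055 and 182, and Dhcr7, which makes cholesterol from its last precursor, 169 and 10.1. Idi1, Mvd, Cyp51, Msmo1, Dhcr7 and the dehydrogenase Nsdhl differed by -4.15, -4.11, -4.12, -4.07, -4.06 and -4.01. Insig1, the sterol sensor that holds SREBP in the endoplasmic reticulum, differed by -3.46. Fatty acid synthase, Fasn, read 1077 and 199 (-2.44), and the desaturase Scd1 1566 and 334 (-2.23). The genes of the SREBP factors differed less, at -1.42 for Srebf1 and -1.16 for Srebf2. Lpin1, a phosphatidate phosphatase also induced by fasting, did not follow: it differed by 0.22 in the wild-type channels and by 4.04 in the knockout channels. The list had a median of -1.56 in the knockout channels, and there too Idi1 (-1.87), Cyp51 (-2.08) and Fasn (-2.98) were lower in P1 liver.

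The promoters of the 2 lowest of these genes that hold the letters CCAAT are shown because this motif is common to the list. They are RefSeq windows of mouse build GRCm38.p6, 250 bases before to 50 after the gene's start, written 5′ to 3′ along the gene's strand, with CCAAT or its reverse complement in capitals. The Idi1 window is chr13:8885356-8885655, plus strand and the Cyp51 window chr5:4104648-4104947, minus strand.
Idi1: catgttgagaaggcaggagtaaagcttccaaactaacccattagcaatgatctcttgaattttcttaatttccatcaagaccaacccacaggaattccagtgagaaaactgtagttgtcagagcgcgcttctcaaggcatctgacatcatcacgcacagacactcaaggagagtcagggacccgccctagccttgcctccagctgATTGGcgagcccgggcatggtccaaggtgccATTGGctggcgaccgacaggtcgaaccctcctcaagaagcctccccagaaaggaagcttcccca
Cyp51: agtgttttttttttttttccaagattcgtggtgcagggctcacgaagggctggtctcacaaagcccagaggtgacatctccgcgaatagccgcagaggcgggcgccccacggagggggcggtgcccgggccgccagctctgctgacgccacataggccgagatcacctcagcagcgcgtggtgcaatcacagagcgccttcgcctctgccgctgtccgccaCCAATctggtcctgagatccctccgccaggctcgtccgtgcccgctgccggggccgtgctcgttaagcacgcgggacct
In the Idi1 window the motif occurred 2 times and in the Cyp51 window 1 time. Searched on both strands, CCAAT occurred in the windows of 19 of the 22 list members with a window (86.4%) and of 41.1% of all 27025 genes. The letters CACNCCAC, the core of the sterol response element, occurred in 1 of the list's windows and in 7.12% of all. These and the spellings below were tried after the differences were known, and a match is a description of the letters and not a bound site.

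Cell cycle genes were lower in P1 liver by smaller amounts. Of 74 with a value, 40 were at least 2-fold lower and 1 was higher, and the median was -1.12. With cyclic loess scaling 35 of 74 were lower. The list covered entry into S phase, replication and mitosis. Gins2, a subunit of the replicative helicase, read 367 and 60.8 (-2.59), and the S phase cyclin Ccne1 592 and 113 (-2.39). Cdk1, the mitotic kinase, read 2073 in E14 cells and 471 in P1 liver (-2.14). The mitotic genes Kif2c, Ttk and Plk1 differed by -2.08, -2.03 and -1.96. The member that was higher was the phosphatase Cdc25b (2.36), and the proliferation marker Mki67 read 566 and 835, a difference of 0.56 in the direction opposite to most of the list. P1 liver also held higher erythroid and myeloid genes, given below, and the part that dividing blood cells had in these values was not tested. In the knockout channels the median was -1.46 and Mki67 differed by -0.11. Of 22 cyclin inhibitor and growth arrest genes 6 were at least 2-fold higher and 5 lower (median 0.64), and with normexp 2 were higher and 3 lower. Txnip, the thioredoxin-interacting protein that glucose induces, read 193 and 2254 (3.54), and Cdkn1a, the p53-induced inhibitor of cyclin-dependent kinases, 18.2 and 52.5 (1.53). Its relative Cdkn1b was lower, at 47.7 and 11.9 (-2.01), as was Cdkn1c above.

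Cdk1 is shown as the lowest of the lower members whose promoter holds TTTGAA, the letters of the cell cycle homology region through which cell cycle genes are repressed in resting cells. Its window is chr10:69352863-69353162, minus strand, from the same build, with TTTGAA or its reverse complement in capitals.
Cdk1: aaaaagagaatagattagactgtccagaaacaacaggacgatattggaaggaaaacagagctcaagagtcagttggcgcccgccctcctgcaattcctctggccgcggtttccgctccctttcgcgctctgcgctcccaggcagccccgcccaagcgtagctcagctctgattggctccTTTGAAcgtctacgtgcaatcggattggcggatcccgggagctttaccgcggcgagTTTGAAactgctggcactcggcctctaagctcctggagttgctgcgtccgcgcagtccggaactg
TTTGAA occurred 2 times in it. It occurred in the windows of 32 of 63 list members (50.8%) against 20.2% of all genes, and CCAAT in 43 (68.3%).

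The cytochrome P450 genes, the monooxygenases of drug, steroid and bile acid metabolism, were among the genes with the largest higher values in P1 liver. Of 32 with a value, 24 were at least 2-fold higher and 1, the sterol enzyme Cyp51, was lower, with a median of 3.77 against -0.20 over all genes. Cyp2e1, which oxidises ethanol, read 8.98 in E14 cells, near the limit, and 12571 in P1 liver. Cyp3a11, a main drug-oxidising enzyme of mouse liver, read 8.95 and 2218, and its relative Cyp3a16 54.8 and 4396. These genes were 1399.9-fold, 248-fold and 80.2-fold higher in P1 liver. The Cyp3a genes are near copies of each other, so a probe may read more than its named gene. Cyp4a14, a fatty acid hydroxylase under PPARα, was below the limit in E14 cells and read 22008 in P1 liver, the largest bound of all named genes at 7804-fold or more. Among the bile acid enzymes, Cyp8b1, the sterol hydroxylase that makes cholic acid, read 11.9 and 761, 63.9-fold higher, while Cyp7a1, the rate-limiting enzyme of bile acid synthesis, read 15.4 and 74.4 (2.28). The knockout channels gave a median of 3.89, with Cyp2e1 at 9.30 and Cyp3a11 at 7.26.

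The promoters of the 2 highest P450 genes that hold CAAAGTCCA, a spelling of the site of the hepatocyte nuclear receptor HNF4, are shown with these letters or their reverse complement in capitals. The Cyp3a11 window is chr5:145879805-145880104, minus strand and the Cyp3a16 window chr5:145469674-145469973, minus strand, both from GRCm38.p6.
Cyp3a11: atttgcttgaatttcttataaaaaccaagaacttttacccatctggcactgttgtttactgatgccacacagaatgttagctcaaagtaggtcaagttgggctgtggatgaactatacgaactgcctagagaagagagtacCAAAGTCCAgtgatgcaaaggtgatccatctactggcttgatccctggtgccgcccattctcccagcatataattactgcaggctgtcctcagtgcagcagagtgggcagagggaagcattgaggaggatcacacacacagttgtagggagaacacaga
Cyp3a16: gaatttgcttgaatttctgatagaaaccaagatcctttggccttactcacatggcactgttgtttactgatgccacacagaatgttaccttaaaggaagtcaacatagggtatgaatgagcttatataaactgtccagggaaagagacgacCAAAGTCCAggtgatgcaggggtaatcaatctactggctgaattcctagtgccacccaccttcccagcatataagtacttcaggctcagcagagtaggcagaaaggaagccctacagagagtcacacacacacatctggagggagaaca
The motif occurred 1 time in each. It was present in 4 of 25 P450 windows and in 0.555% of those of all genes. These P450 promoters come from a family of gene copies and are not independent of each other.

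Other functions of the mature hepatocyte were higher as well, with smaller medians. Of 21 bile acid and membrane transporters, 14 were at least 2-fold higher and 1 lower (median 2.26). Slc10a1, which takes up bile acids from portal blood, read 32.1 and 3932 (6.94). Abcb11, the export pump for bile salts, read 174 and 1329 (2.94). Of 30 genes of the urea cycle and amino acid catabolism, 19 were higher and 1 lower (median 1.52). The steps of the urea cycle were not uniform. Cps1, which fixes ammonia, read 10.1 and 369 (5.18) and Arg1, which releases urea, 295 and 13938 (5.56). Otc, which joins their products between these steps, read 1755 and 611, a difference of -1.52 and the member that was lower. The methionine enzyme Mat1a read 256 and 19168 (6.23), and Tdo2, which opens the ring of tryptophan, was at least 80.2-fold higher.

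Of 19 genes of glucose production and glycogen, 9 were at least 2-fold higher and 1 lower (median 0.77). Pck1, the committed enzyme of gluconeogenesis, and Tat, which degrades tyrosine, were 209-fold and 492-fold higher. Pcx, which supplies oxaloacetate for glucose, read 181 and 2167 (3.58). The liver pyruvate kinase Pklr, of the opposing pathway, was the lower member, at 26.4 and 4.90 (-2.43). Of 30 genes of fat oxidation, 17 were higher and 0 lower (median 1.05). Cpt1a, the gate for fatty acids into mitochondria, read 129 and 2329.8 (4.18), and the peroxisomal enzyme Ehhadh 206 and 3104 (3.91). By contrast, none of the 43 respiratory chain genes differed by 2-fold with quantile scaling and blank subtraction, with values between -0.86 and 0.85. With cyclic loess 1 was higher, with a common median 1 was lower, and with local background subtracted 2 were higher and 5 lower. Of 26 genes that form fetal and adult isozyme pairs 8 were at least 2-fold higher and 6 lower (median -0.04), and with normexp 4 were higher and 4 lower. The liver and platelet forms of phosphofructokinase went in opposite directions, with Pfkl at 247 and 55.5 (-2.15) and Pfkp at 19.3 and 133 (2.78). The lactate dehydrogenase subunit Ldhb (-1.84) and the hexokinase Hk2 (-1.53) were lower. In the knockout channels the medians of glucose production and fat oxidation were 1.86 and 1.55.

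Plasma protein genes divided into members that were bright in both samples and members that were near the limit in E14 cells. Of 33 with a value, 15 were at least 2-fold higher and 2 lower (median 0.84), and 8 reached the scanner's ceiling on 1 array or both. The transferrin gene Trf, Rbp4, Apoa1 and Apoe differed by -0.17, 0.12, 0.60 and 0.84, where the values of Trf, Apoa1 and Apoe are compressed by the ceiling. Apoa4, an apolipoprotein of fat transport, was below the limit in E14 cells and read 17359 in P1 liver, at least 6155-fold higher. Apoa5, which activates lipolysis of plasma triglyceride, read 35.6 and 5842 (7.36). The fetuin Fetub and the histidine-rich glycoprotein Hrg differed by 6.15 and 6.26. Among 24 coagulation genes 7 were higher and 2 lower (median 0.48). The fibrinogen chain Fga read 1297 and 3692 (1.51), and the anticoagulant protein S gene Pros1 149 and 612 (2.04). Among 22 acute phase genes 11 were higher and 3 lower (median 1.16). Fgl1, a hepatocyte-secreted fibrinogen relative, read 4.51 in E14 cells, near the limit, and 7002 in P1 liver. Haptoglobin, Hp, read 181 and 16819 (6.54), and hepcidin, Hamp, the hormone that limits iron export, 174 and 5013 (4.85). The serum amyloid genes Saa4 and Saa3 were lower, at -3.85 and -2.38. Of 20 complement genes 7 were higher and 1 lower, and the highest were C1qa (8.44 or more) and Fcna (7.85 or more), which macrophages make.

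The transcription factors of the liver lineage differed in both directions. Of 31 with a value, 7 were at least 2-fold higher and 5 lower, beside 14.2% and 18.502% of all genes. The median was 0.10, against -0.20 over all genes. With normexp 3 were higher and 1 lower, where 792 and 533 of all 13534 genes were. Hnf4a, a nuclear receptor of hepatocyte identity, read 926 and 976 (0.07), and Cebpa 70.4 and 47.1 (-0.58). Among the lower members Prox1, Gata4 and Gata6, which act in early liver development, differed by -1.51, -1.48 and -1.35. The 2 highest members were nuclear receptors. Nr1i3, the constitutive androstane receptor, read 31.0 and 469 (3.92), and Nr0b2, which represses bile acid synthesis, 18.0 and 322 (4.16). Genes known from the portal and the central side of the adult lobule were counted too. Of 18 portal genes 12 were higher and 0 lower, while of 19 central genes 7 were higher and 7 lower. The central list held Cyp2e1 at 10.45 and also the ammonium transporter Rhbg at -4.07 and the Wnt target Lgr5 at -3.31. The difference between these lists was not tested.

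Growth factor and hormone genes held large single differences. Of 24 growth hormone and IGF genes 8 were at least 2-fold higher and 4 lower (median 0.32). Igfbp2, an insulin-like growth factor binding protein abundant in fetal plasma, read 86.7 in E14 cells and 20639.7 in P1 liver, 238-fold higher. Igfbp1, which fasting induces, read 2188 and 11262 (2.36), and Igf1, the postnatal growth factor, 21.1 and 109 (2.36). Egfr, the epidermal growth factor receptor, read 35.6 and 285, while the binding protein Igfbp4 was lower (-1.96). Socs2, a target of growth hormone signalling, read 37.5 and 587 (3.97), and differed by 3.08 in the knockout channels. Its sign turned when local background was subtracted, as it did for the named genes Saa3 and Col3a1. That background rose with the signal of the probe itself, with rank correlations over probes of 0.92 on the E14 array and 0.90 on the P1 array. Of 26 glucocorticoid and clock genes 12 were at least 2-fold higher and 5 lower (median 0.76), and with normexp 6 were higher and 2 lower. Hsd11b1, which regenerates active glucocorticoid in liver, read 8.67 and 1467 (7.40). The metallothioneins Mt1 and Mt2, which bind zinc, read 52731 and 55656 in E14 cells, at the top of the range, and 10929.7 and 5656 in P1 liver. Both were thus lower by at least 4.82-fold and 9.84-fold. In the knockout channels Mt1 was at the top of the range on both arrays, and Mt2 differed by 0.17. Klf9, a glucocorticoid-induced transcription factor, read 25.2 and 148 (2.55), and the lipase inhibitor Angptl4 7.38 and 41.2 (2.48).

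The neutrophil, megakaryocyte and macrophage lists had the highest medians in P1 liver. The sort was set to remove such cells from the E14 sample, so these differences set whole tissue against cells gated against them. All blood lists had members near the limit in E14 cells. Of 26 neutrophil genes 24 were at least 2-fold higher and 0 lower (median 5.60), with 12 detectable only in P1 liver. The granule peptide Camp read 3.51 and 7525, 2146-fold higher, the largest difference among genes detectable on both arrays at the limit of 2 SD. Its E14 signal lay just above that limit. At a limit of 3 SD it was not detectable in E14 cells, and the largest difference was 10.60, that of Fgl1. The calcium-binding alarmins S100a9 and S100a8 read 13.6 and 28.6 in E14 cells and 17100.1 and 10515 in P1 liver. Ngp and Ltf, proteins of secondary granules, differed by 9.35 and 8.01. Mpo, of the earlier primary granules, differed by 6.39.

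Of 33 macrophage genes 32 were higher and 0 lower (median 4.23). The complement gene C1qb read 4.67 and 1261 (8.08), and the scavenger receptor Marco 11.1 and 2183 (7.62). Clec4f and Vsig4, receptors that mark Kupffer cells, the resident macrophages of liver, differed by 7.58 and at least 6.88. Of 16 megakaryocyte genes 13 were higher and 0 lower (median 4.54), with the platelet chemokine Pf4 at 20.9 and 1630.2. Of 23 lymphoid and progenitor genes 17 were higher and 2 lower (median 2.13), and with normexp 11 were higher. The pre-B cell gene Vpreb3 read 5.86 and 305, whereas the immunoglobulin gene Ighm was lower, at 299 and 40.9. The neutrophil, macrophage and megakaryocyte medians in the knockout channels were 5.13, 4.33 and 4.55.

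Of 32 erythroid genes 30 were at least 2-fold higher and 0 lower (median 2.83, knockout channels 2.40), and no globin gene has a named probe here. Slc4a1, the anion exchanger of the red cell membrane, read 10.8 and 815 (6.23). Car1, a carbonic anhydrase of red cells, read 5.11 and 331 (6.02), and Alas2, the first enzyme of erythroid heme synthesis, 34.6 and 1022 (4.88). All but 2 of the erythroid genes with a value were detectable in the sorted cells. Rhag, a subunit of the Rh complex with a bound of 3.85, is shown as an erythroid gene whose promoter holds TGATAAG, a spelling of the site of GATA factors. Its window is chr17:40810899-40811198, plus strand in GRCm38.p6, with the motif or its reverse complement in capitals.
Rhag: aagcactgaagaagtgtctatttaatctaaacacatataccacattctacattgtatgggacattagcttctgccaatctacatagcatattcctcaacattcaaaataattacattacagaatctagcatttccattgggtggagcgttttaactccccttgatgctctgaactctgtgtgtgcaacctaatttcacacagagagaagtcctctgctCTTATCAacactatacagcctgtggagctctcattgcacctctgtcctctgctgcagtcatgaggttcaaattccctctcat
TGATAAG occurred in 5 of 24 erythroid windows (20.8%) and in 2.71% of those of all genes.

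Endothelial genes were also higher in P1 liver. Of 40 with a value, 34 were at least 2-fold higher and 0 lower, with a median of 4.11, beside 2.86 for the knockout channels. The tight junction gene Cldn5 read 4.39 and 955 (7.77), the fatty acid receptor Cd36 6.95 and 1142 (7.36), and the VEGF receptor Flt1 3.95 and 461 (6.87). The junction gene Pecam1 was at least 91.6-fold higher. Genes that mark the sinusoidal endothelium of liver were among them: Stab2, a scavenger receptor for hyaluronan, and Lyve1 differed by 5.35 and 5.33, and by 5.68 and 5.29 in the knockout channels. The P1 wild-type sample also held lung genes, described below, and lung is rich in vessels. The part of lung tissue in the endothelial values was not tested.

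Stromal, mesothelial and bile duct genes moved in both directions. Of 40 stellate, fibroblast and smooth muscle genes 5 were at least 2-fold higher and 15 lower, with a median of -0.56, beside -1.56 for the knockout channels. With normexp 3 were higher and 8 lower. The sorted E14 sample held signal for them: the collagen gene Col3a1 read 3375 there and 1254 in P1 liver (-1.43), and the proteoglycan Lum 793 and 54.6 (-3.86). Lhx2, a factor of stellate cells, read 417 and 104 (-2.01). Mfap4, a microfibril protein abundant in lung, went the other way, at 100.2 and 800.2, 7.98-fold higher, and stood at -3.91 in the knockout channels. Of 49 matrix genes 10 were higher and 15 lower (median -0.19, knockout channels -1.30), and with normexp 4 were higher and 6 lower. Of 18 mesothelial genes 10 were lower and 3 higher (median -1.17), but with normexp 3 were lower and 2 higher (median -0.13). Upk3b, which marks the liver surface, read 198 and 47.4 (-2.06), and Wt1, a factor of mesothelium, 28.3 and 8.30 (-1.77). Msln was higher, at 85.0 and 607 (2.84). Of 22 bile duct genes 8 were at least 2-fold higher and 5 lower, beside 14.2% and 18.502% of all genes. Among the higher members Tspan8 read 5.41 in E14 cells and 526 in P1 liver. Cd24a and Aqp1, the latter also in the erythroid list, differed by 4.50 and 4.25. Among the lower members Prom1 differed by -1.85. Sox9, the factor of bile duct commitment, read 33.0 and 25.4 (-0.38) and Spp1, osteopontin, 178 and 474 (1.41). Mmp14, the gene deleted in the knockout, read 106 and 97.8 in these wild-type samples (-0.11), and the inhibitor Timp3 10.4 and 434 (5.38). Of 14 genes of Mmp14, related proteases and their inhibitors 1 was at least 2-fold higher and 5 lower (median -0.28), but with normexp 0 were lower, and with cyclic loess 3. The inhibitor Timp1 was lower, at 50.5 and 10.7 (-2.23), and the gelatinase Mmp2 read 209.7 and 121 (-0.79), beside -3.28 and -2.75 in the knockout channels.

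**Figure D3:**
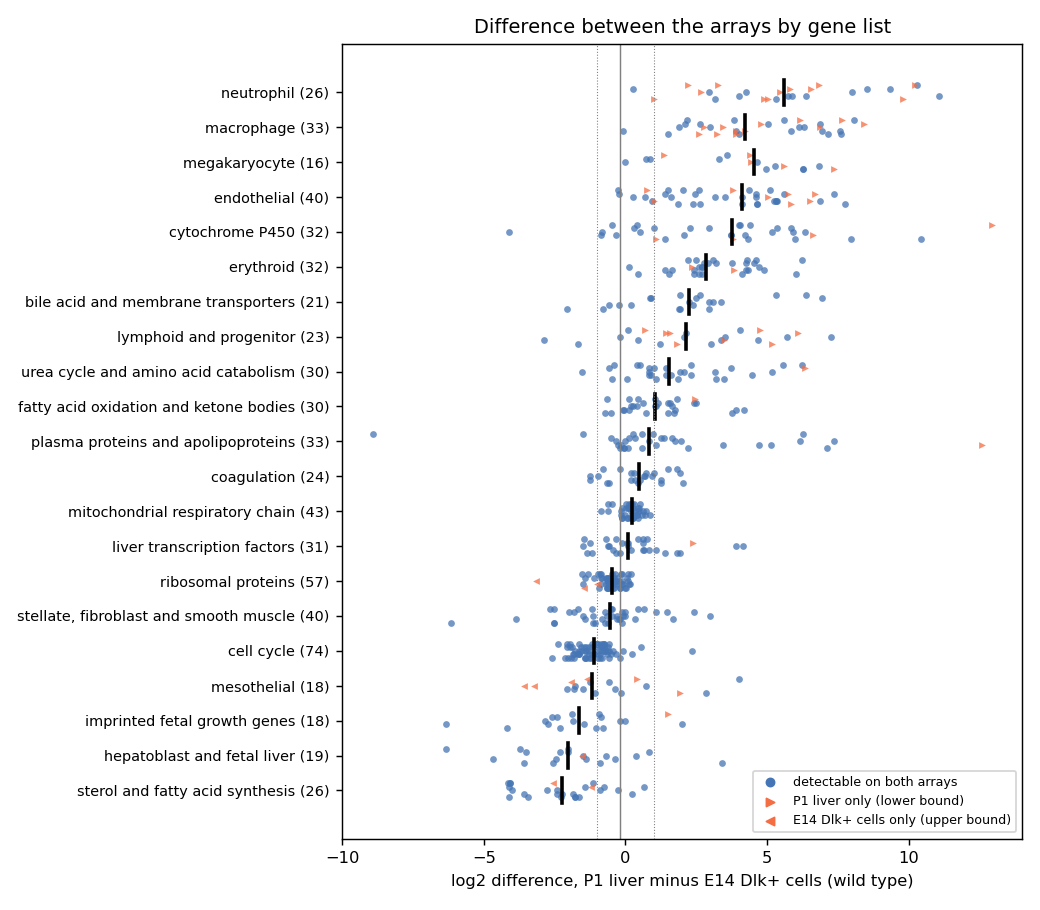
log2 difference of P1 liver minus E14 Dlk+ cells in the wild-type channels (x axis) for the genes of selected lists (rows, number with a value in parentheses), with triangles for bounds, black bars at list medians, a grey line at the median of all genes (-0.20) and dotted lines at 2-fold. Neutrophil genes have the highest median (5.60) and sterol and fatty acid genes the lowest (-2.25), while all respiratory chain genes lie between the dotted lines.

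Lung epithelial genes are set apart because they do not belong to liver. In the wild-type P1 sample they were bright. Of 47 with a value 39 were at least 2-fold higher than in E14 cells and 1 lower (median 3.83), and 19 were detectable only in P1 liver. With normexp 22 were higher (median 0.95). Sftpc, the surfactant protein of alveolar type II cells, was below the limit in E14 cells and read 20069 in P1 liver. Scgb1a1, the secretoglobin of club cells, was likewise detectable only in P1 liver, at 5536. Sftpa1, a further surfactant protein, read 3.01 and 1957, and Ager, of alveolar type I cells, 10.3 and 896. The list thus held genes of several lung epithelial cell types. The differences in the knockout channels were 5.27 for Sftpc, 2.51 for Scgb1a1, 3.15 for Sftpa1 and -0.35 for Ager. The list's median there was -0.01 over 35 genes. Of 28 lung stroma genes 17 were higher and 2 lower in the wild type (median 1.52, knockout channels -0.71), and with normexp 8 were higher. Leaving the 82 genes of both lists out before scaling gave 1893 genes at least 2-fold higher and 2446 lower, and did not turn the sign of any other call. Other lists overlap with lung expression: the P450 gene Cyp2f2 (3.71), which club cells express, the duct gene Muc1 (6.21 or more) and endothelial and stromal genes. The part of lung tissue in those values was not tested. In the knockout channels, where Sftpc, Sftpa1 and Scgb1a1 were also higher in P1 liver, the macrophage, P450 and hepatoblast medians were 4.33, 3.89 and -1.94. The endothelial and matrix medians there are given above. The part of lung tissue was not tested for any of these lists.

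**Figure D4:**
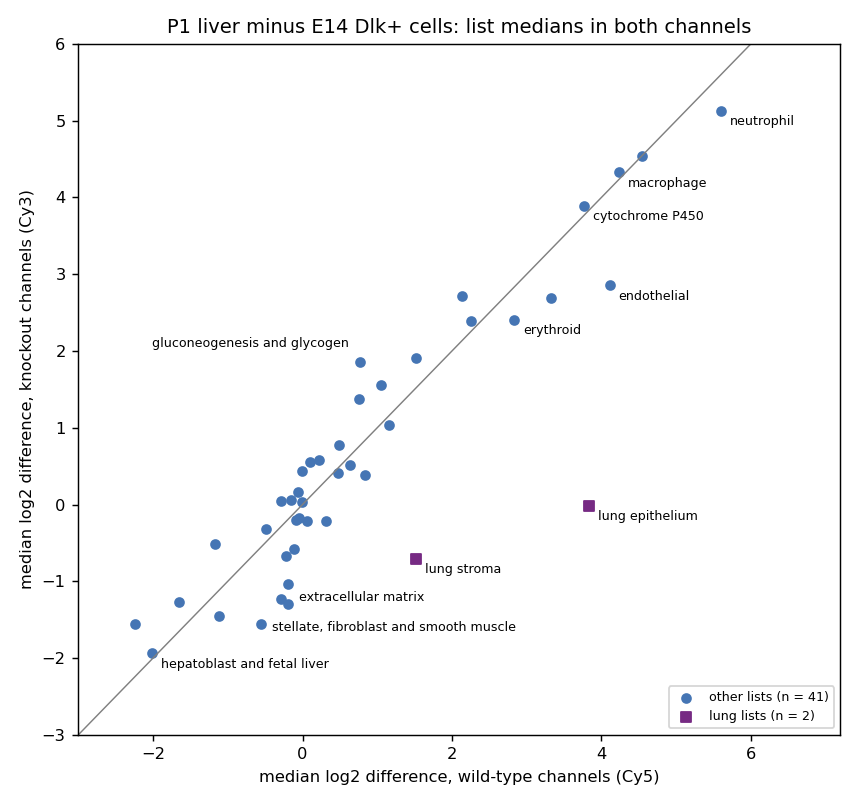
Median log2 difference of P1 liver minus E14 Dlk+ cells for each of 43 gene lists in the wild-type channels (x axis) and the knockout channels (y axis), with the line at equality. The lists range from sterol and fatty acid synthesis at -2.25 to neutrophil genes at 5.60 in the wild type, and lung epithelium (3.83 and -0.01) and lung stroma (1.52 and -0.71) lie farthest below it. Endothelial (4.11 and 2.86) and extracellular matrix genes (-0.19 and -1.30) also lie more than 1 below it, and glucose production (0.77 and 1.86) more than 1 above.

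Ribosomal protein genes and genes of other organs had medians closer to that of all genes. Of 57 ribosomal protein genes 8 were at least 2-fold lower and 0 higher (median -0.49), beside 18.502% and 14.2% of all genes. Among the 54 of them detectable on both arrays 5 were lower. Genes of pancreas, heart, kidney, gut and skeletal muscle had medians of -0.09, -0.01, -0.01, -0.16 and -0.29. Within the gut list the trefoil peptide Tff3 stood out at 278 and 6275 (4.50, knockout channels 5.76). Immediate early genes, which cell dissociation induces, had a median of -0.22, near the -0.20 of all genes. Of 33, 9 were at least 2-fold lower in P1 liver and 5 higher, beside 18.502% and 14.2% of all genes. With normexp 6 were lower and 3 higher. Fos, Jun and Atf3 of the AP-1 and ATF factors, taken from the 9 lower members and not typical of the list, read 1144, 1003 and 145 in the sorted cells. They read 158, 188 and 13.2 in whole liver. The part of dissociation in these values was not tested. Of 29 chaperone and amino acid response genes 6 were lower and 3 higher, near the shares of all genes, with a median of -0.12. The lowest were the serine synthesis enzymes Psph (-3.11) and Psat1 (-2.93). Of 30 conjugation enzymes 11 were higher, among them the methyltransferase Gnmt (3.72), and 7 lower, among them the glutathione transferase Gstt1 (-2.24).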

How the data were processed

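Amplified RNA was dye-labelled by the amino allyl method, per the labels' protocols. The deposited scanner tables hold spot intensity in both colours, not normalised, from scans at 3 gains joined by straight lines, per the file headers. The scanner software and genome build are not given in the sources used here. The authors' deposited log2 ratios of knockout over wild type (column medians 0.00 and 0.00, correlating at 1.00 and 1.00 with the scanner channels' ratio) were not used. From the 635 nm intensity of both arrays the mean of the blank spots, trimmed by 5% at each end, was subtracted. Probes above that mean plus 2 SD on either array were kept, quantile scaled and floored at each array's limit, and probes of a gene were averaged on the log2 scale. Of 23473 probes, 16631 had 1 gene symbol, updated through RefSeq, and 6842 had none and were left out of gene counts. The knockout channels (532 nm) were processed alike. A gene was counted past a 2-fold or an 8-fold difference, without a test. Lists are described by counts and medians. Genes, members and lists were chosen with earlier results of these data known. The named genes are the 20 highest and 20 lowest, the 12 largest bounds each way, the 8 largest of each list and a short set of markers. Hmga1, Rtl1, Fasn, Scd1, Srebf1, Srebf2, Lpin1, Otc, Trf, Rbp4, Apoa1, Apoe, Saa3, Gata6, Mpo, Ighm, Rhag, Stab2, Lyve1, Col3a1, Lhx2, Wt1, Gstt1, Col6a1, Loxl1, Fbn1 and Myh11 were named after their values were seen. The procedure was checked on simulated arrays in which only bright probes were changed, so the check does not cover genes near the detection limits. Python 3.11.15 with pandas 2.3.3, and limma 3.58.1 in R 4.3.3 for the normexp and cyclic loess alternatives, were used.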

Additional observations from a re-analysis of the deposited data

Results flagged for a closer look

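Among 960 list members detectable in all 4 channels, 500 differed by at least 2-fold between P1 liver and E14 Dlk+ cells in the wild-type channels, and 12 of these differed by at least 2-fold in the opposite direction in the knockout channels. All 12 were higher in P1 liver by the wild-type channels but lower by the knockout channels, and 8 of them are members of a lung list. In the wild-type channels alone, 28 lung epithelium and 26 lung stroma genes were detectable on both arrays. Lung members among the 960 were not counted, so the 8 of 12 have no share to stand beside. The share of such opposite differences over all genes was not counted. Mfap4, a microfibril protein, stood at 2.997 (wild-type channels) and -3.91 (knockout channels), and the transcription factor Tcf21 at 1.69 and -1.67. Lung epithelial members were S100g (2.43 and -1.14), Rtkn2 (2.15 and -1.84), Irx1 (1.94 and -1.08) and Clic5 (1.73 and -1.04). The carbonic anhydrase Car4, of the lung stroma list, stood at 1.59 and -1.59. Matrix and muscle members were Col6a1 (1.31 and -1.96), Loxl1 (1.23 and -1.52), Fbln5 (1.18 and -1.67), Fbn1 (1.08 and -1.50) and Myh11 (1.09 and -1.54). Genotype and dye changed together between these channels, each with 1 sample per stage, and the difference between them was not tested.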

How the results depend on the processing

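No paired analysis was possible because each group has 1 sample. Values with no replicate were called moved when they shifted by more than the median SD between probes of a gene (0.54), and the median turned its sign under an alternative in none of the 19 lists with a median past 2-fold and in 15 of the other 24. Scaling to a common median or 75th percentile, a threshold of 3 SD, leaving out lung or top-of-range genes, the brightest probe and a common floor (added after seeing the data) kept both counts within 1.5 times and the medians of the main lists within that SD. With cyclic loess 1597 genes were at least 2-fold lower. The background step changed sizes most. With normexp, 792 genes were higher and 533 lower, and the medians were 2.11 for P450, 1.65 for endothelial, 1.57 for erythroid, 2.30 for macrophage, 2.63 for neutrophil, 0.95 for lung epithelial, -0.88 for hepatoblast, -1.06 for imprinted and -1.68 for sterol genes. With no subtraction, 858 were higher and 585 lower, and medians were 2.16 for P450, 1.80 for endothelial, 1.67 for erythroid, 2.37 for macrophage, 2.82 for neutrophil, 1.07 for lung epithelial and -0.88 for hepatoblast genes. Subtracting local background gave -1.38 for hepatoblast, 6.12 for lung epithelial, 6.29 for macrophage and 9.02 for neutrophil genes, and turned Socs2 to -12.21, Saa3 to 8.76 and Col3a1 to 1.02; of 4421 genes past 2-fold, 157 changed direction. Local background rose with probe signal (rank correlations of 0.92 and 0.90), and with it subtracted the scaled limits fell to 0.028 in E14 and 0.0025 in P1. Over genes detectable on both arrays alone, which are fewer, the medians were 2.14 for lung epithelial and 5.05 for macrophage genes. For the other shifts the cause was not tested. The E14 detection limit bounds every fold for genes near it.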
